A study of Mus musculus with 6 samples.

Results

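The ABCA transporter genes Abca5, Abca6, Abca8a, Abca8b and Abca9 lie side by side on mouse chromosome 11. These 5 genes were chosen as the listed members of that cluster, out of 35527 genes with summed reads, and with the difference between the genotypes already in view. They were read in whole pancreas of C57BL/6 mice at postnatal day 1, by bulk RNA sequencing. Wild-type mice (WT) gave 3 libraries and mice lacking miR-216a, written miR216a-/- in the design text and called KO here, gave 3 libraries, each from its own donor mouse. No treatment is labelled, and the sources used here give neither sex nor litter. Because the members were picked on the KO and WT values, those values are given as a description, and no test of a member is reported.

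ABCA proteins are large membrane proteins that use ATP to move lipids across or within membranes. The subgroup encoded by this cluster is called the ABCA6-like subfamily and arose by tandem duplication of 1 ancestral gene. In the mouse, Abca8a and Abca8b are the counterparts of the single human ABCA8, which has been tied to cholesterol efflux and high-density lipoprotein. ABCA5 sits in lysosomes and late endosomes, while ABCA6 and ABCA9 have been described as cholesterol-responsive genes of macrophages. In the pancreas, acinar cells make digestive enzymes and islets make hormones. Fibroblasts, vessels and nerves fill the space between them, and bulk RNA sums over all of these cells.

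The cluster runs from 109932190 to 110337716 on chromosome 11 (GRCm38, GENCODE M21), a span of 406 kb. All 5 genes are on the minus strand, each between 63656 and 74957 bases long. In order of position they are Abca8b (109932190 to 109995845), Abca8a (110025634 to 110095978), Abca9 (110100749 to 110168196), Abca6 (110176820 to 110251776) and Abca5 (110269369 to 110337716). The gaps between them run from 4770 bases, between Abca8a and Abca9, to 29788 bases, between Abca8b and Abca8a. Their coding parts are close in length, from 4863 bases in Abca8a and Abca8b to 4929 bases in Abca5. Abca8a and Abca8b were the most alike, with 74.8% identical bases in an alignment of their coding parts. Abca9 was 71.1% identical to each of them, and Abca6 66.4% to Abca8b and 65.9% to Abca8a. Abca5 was the most distant, at 60.6 to 62.2% to the other members. Words of 31 bases that occur in another gene's transcript made up 3.52% of the Abca8a coding transcript, 3.24% of that of Abca8b, 0.803% of that of Abca9 and 0.653% of that of Abca6. Abca5 shared 0 such words with another gene. Most of the sequence therefore tells the members apart, and 183 of the 197 shared words of Abca8a were shared with Abca8b.

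The regions around the starts of transcription also differed among the members. RefSeq (GRCm38.p6) gave a start region of 300 bases, from 250 before to 50 after the start of transcription, for 4 of the 5 members. Those of Abca8a (chr11:110095888-110096187), Abca8b (chr11:109995796-109996095) and Abca5 (chr11:110337667-110337966), all on the minus strand, are printed because they set the 2 nearest relatives beside the most distant one. Capitals mark the word CACGTG, the palindromic E box.
Abca8a: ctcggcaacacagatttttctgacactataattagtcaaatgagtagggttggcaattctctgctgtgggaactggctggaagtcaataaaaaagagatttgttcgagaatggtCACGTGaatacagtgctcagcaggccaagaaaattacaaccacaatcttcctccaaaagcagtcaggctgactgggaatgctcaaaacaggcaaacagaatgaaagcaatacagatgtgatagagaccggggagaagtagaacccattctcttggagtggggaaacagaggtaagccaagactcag
Abca8b: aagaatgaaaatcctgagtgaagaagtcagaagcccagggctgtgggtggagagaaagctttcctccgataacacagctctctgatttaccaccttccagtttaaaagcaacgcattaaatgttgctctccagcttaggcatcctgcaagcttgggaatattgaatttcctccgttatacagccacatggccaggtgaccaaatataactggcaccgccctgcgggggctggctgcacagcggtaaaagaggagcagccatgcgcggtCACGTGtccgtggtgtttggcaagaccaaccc
Abca5: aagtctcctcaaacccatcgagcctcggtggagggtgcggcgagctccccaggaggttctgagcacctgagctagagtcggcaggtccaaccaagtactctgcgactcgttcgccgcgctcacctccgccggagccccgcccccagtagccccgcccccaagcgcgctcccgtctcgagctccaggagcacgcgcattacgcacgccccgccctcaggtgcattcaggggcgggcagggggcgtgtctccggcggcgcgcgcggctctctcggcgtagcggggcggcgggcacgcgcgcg

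The Abca5 region had 40 CpG pairs and a GC content of 72.3%, more CpG pairs than 96.1% of the 32851 start regions in the table. Abca8a had 4 CpG pairs and 44.3% GC, Abca9 had 2 and 45.3%, and Abca8b lay between with 10 and 51.3%. The median region had 7 CpG pairs and 52.7% GC. The word CACGTG occurred once in Abca8a, at position -136, and once in Abca8b, at position 18, counting the first transcribed base as 0. It occurred in neither Abca9 nor Abca5, and in 7.15% of all regions. The word GGGCGG, the GC box, was searched on both strands. It occurred 5 times in Abca5, where overlapping places count separately, once in Abca8b and in 35.7% of all regions. TATAAA, the TATA box, was in 13.6% of all regions and TGACCT, a core word of nuclear receptor sites, in 16.3%, both strands counted, and neither was in the 4 regions of members. The 4 words were chosen after these sequences had been read, and a match is a description of letters only.

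The missing miRNA binds messages through its seed, bases 2 to 8, in capitals here with its place at chr11:28757018-28757039 on the plus strand (RefSeq, GRCm38.p6).
mmu-miR-216a-5p: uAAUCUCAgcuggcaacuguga
Abca5 match: atttgtcaGAGATTAtttgtagc

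The longest 3' UTR of Abca5, of 3090 bases, held 1 site of the 7mer-A1 kind at base 2447, printed above in capitals with its flanks (chr11:110269998-110270020, minus strand). Such a site pairs with bases 2 to 7 of the miRNA and has an A opposite base 1, so it does not pair with the last base of the seed. Abca9 had a match of 6 bases only. Abca8a, Abca8b and Abca6 had 0 matches to this seed in UTRs of 675, 2320 and 149 bases. Only the seed of mmu-miR-216a-5p was searched, and only in the longest 3' UTR of each gene. Of 21042 genes with an annotated 3' UTR, 15.2% had a site of 7 or 8 bases, this kind included, and the median UTR was 960 bases long. Transcripts of Mir216a itself were not among those quantified, so the genotypes rest on the labels.

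Depth was even, from 20565387 to 23028718 estimated reads per library, and the members passed the filter on low values as 5 of 15805 genes. Marker genes matched the labelled tissue, with acinar markers summing to between 164714 and 261135 CPM (reads scaled to library size by TMM) and endocrine markers to between 6286 and 9129 CPM. KO 1 stood apart in Ddx3y, a Y-linked gene, at 0.141 CPM against 61.8 to 102 CPM in the other libraries. The Y-linked Eif2s3y (0 against 43.3 to 60.6 CPM) and Kdm5d (2.83 against 27.1 to 36.6 CPM) went the same way. KO 1 thus reads as a female mouse and the other donors as males, although the labels do not state sex. Any part of sex in the values below was not tested. WT 1 stood apart in Alb, the albumin gene of liver, at 219 CPM against 6.41 to 15.1 CPM. List counts and medians that move by over 1.5 times without either library are given both ways below.

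Across all genes, 0 of 15805 (0%) passed an adjusted p of 0.05 in edgeR's quasi-likelihood test, with 0.205 as the smallest adjusted p. At an unadjusted p under 0.05, 5.62% of genes were higher in KO and 7% were lower. The counts called were 436 with DESeq2, of which 304 were lower in KO, and 2 with limma-voom. The 3 KO values were all above the 3 WT values for 9.07% of genes, and all below them for 10.3%. Among the members, 3 of 5 had all KO values above all WT values (Abca8a, Abca6 and Abca8b) and 1 of 5 had them all below (Abca5). Since the members were chosen on this contrast, nothing is read from these counts.

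Abca8a had the widest gap of the cluster. It stood at 22.6, 19.1 and 18.2 CPM in WT 1 to 3 and at 34.6, 53.7 and 54.9 CPM in KO 1 to 3. The groups did not overlap, and KO 1 was the lowest of the KO libraries by a wide margin. The means were 19.97 ± 2.36 CPM in WT and 47.8 ± 11.4 CPM in KO (SD, n = 3), a ratio of 2.39 and a log2 difference of 1.26 ± 0.19 (SE). By its log2 difference it was number 74 from the top of the 15805 genes. The reads behind these values were 478, 476 and 383 in WT and 735, 1057 and 1285 in KO.

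Abca8b, its nearest relative in sequence and the next gene along the chromosome, was low and even. It stood at 8.24, 8.22 and 8.16 CPM in WT 1 to 3 and at 9.75, 11.1 and 10.2 CPM in KO 1 to 3. The groups did not overlap, but the step between them was small. The means were 8.21 ± 0.0405 CPM in WT and 10.3 ± 0.674 CPM in KO (SD, n = 3), a log2 difference of 0.33 ± 0.13 (SE). The reads ran from 172 to 239 per library, and at such numbers the 3 WT values lay closer than counting error alone would usually leave them.

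Abca9, which lies on the other side of Abca8a, overlapped between the groups. It stood at 33.6, 35.0 and 28.4 CPM in WT 1 to 3 and at 47.7, 37.5 and 31.002 CPM in KO 1 to 3. KO 1, the lowest KO library for Abca8a, was the highest of all 6 for Abca9. The means were 32.4 ± 3.47 and 38.7 ± 8.40 CPM (SD, n = 3), a log2 difference of 0.26 ± 0.16 (SE). Without KO 1 the difference was 0.08, and without KO 3 it was 0.40, so its size rested on single libraries.

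Abca6 came next to Abca8a in the size of its difference. It stood at 10.1, 9.14 and 6.12 CPM in WT 1 to 3 and at 12.2, 14.5 and 21.7 CPM in KO 1 to 3. The groups did not overlap, although WT 1 and KO 1 were close, and KO 3 stood above the rest. The means were 8.47 ± 2.09 and 16.2 ± 4.94 CPM (SD, n = 3), a ratio of 1.91 and a log2 difference of 0.93 ± 0.26 (SE). WT 3 gave 129 reads and KO 3 gave 508.

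Abca5, at the far end of the cluster, was the member with a lower mean in KO. It stood at 20.6, 20.4 and 23.2 CPM in WT 1 to 3 and at 16.8, 16.5 and 19.5 CPM in KO 1 to 3. The groups did not overlap, but KO 3 and WT 2 were close. The means were 21.4 ± 1.58 and 17.6 ± 1.62 CPM (SD, n = 3), a log2 difference of -0.28 ± 0.12 (SE).

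**Figure D1:**
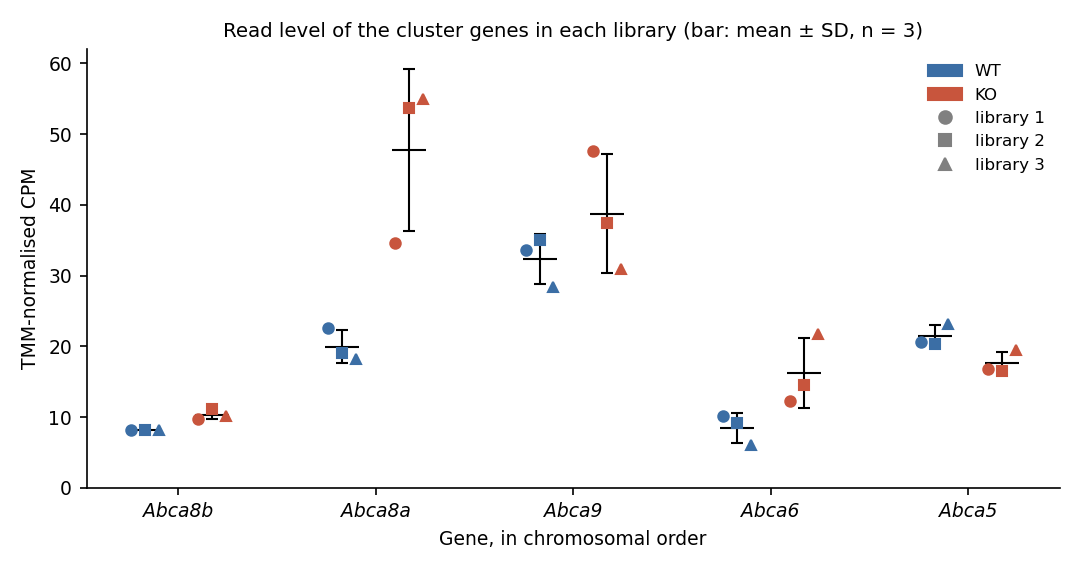
TMM-normalised CPM (y axis) of the 5 cluster genes in chromosomal order (x axis), with 1 point per library, blue for WT and red for KO, the marker shape giving the library number, and black bars for mean ± SD (n = 3). Abca8a shows the widest gap, from 18.2 to 22.6 CPM in WT and 34.6 to 54.9 CPM in KO, while the groups of Abca9 overlap and those of Abca5 lie the other way.

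The cluster as a whole held 95.2, 91.8 and 84.1 CPM in WT 1 to 3 and 121, 133 and 137 CPM in KO 1 to 3. The makeup of this sum differed as well. Abca8a took 22.1 ± 1.53% of the cluster's reads in WT and 36.3 ± 6.68% in KO (SD, n = 3), and Abca5 took 23.8 ± 3.29% and 13.5 ± 0.960%. Abca9 was the largest part in WT, at 35.7 ± 2.23%, against 30.0 ± 8.55% in KO.

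A ratio within a library is free of library size, so it sets Abca8a directly against each neighbour. The log2 ratio of Abca8a to Abca8b was 1.45, 1.21 and 1.15 in WT 1 to 3, against 1.82, 2.27 and 2.42 in KO 1 to 3. The lowest KO value exceeded the highest WT value, with a difference in means of 0.90. Both genes were higher in KO, so this is the part of the Abca8a difference that its nearest relative did not share.

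The log2 ratio of Abca8a to Abca9 was -0.57, -0.87 and -0.64 in WT 1 to 3, against -0.46, 0.52 and 0.82 in KO 1 to 3. Abca9 had the more reads in each WT library and in KO 1, and Abca8a had the more in KO 2 and KO 3. KO 1 lay only just above WT 1, and the difference in means was 0.99.

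The log2 ratio of Abca8a to Abca5 was 0.14, -0.09 and -0.35 in WT 1 to 3, against 1.04, 1.70 and 1.49 in KO 1 to 3. It had the widest step of the 4 ratios, with a difference in means of 1.51 and no overlap. The ratio to Abca6 was 1.15, 1.05 and 1.56 in WT and 1.49, 1.88 and 1.34 in KO. Here the groups overlapped, and the difference in means was 0.31, or 0.16 without KO 2. The differences of Abca8a and Abca6 are thus not told apart by these libraries.

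**Figure D2:**
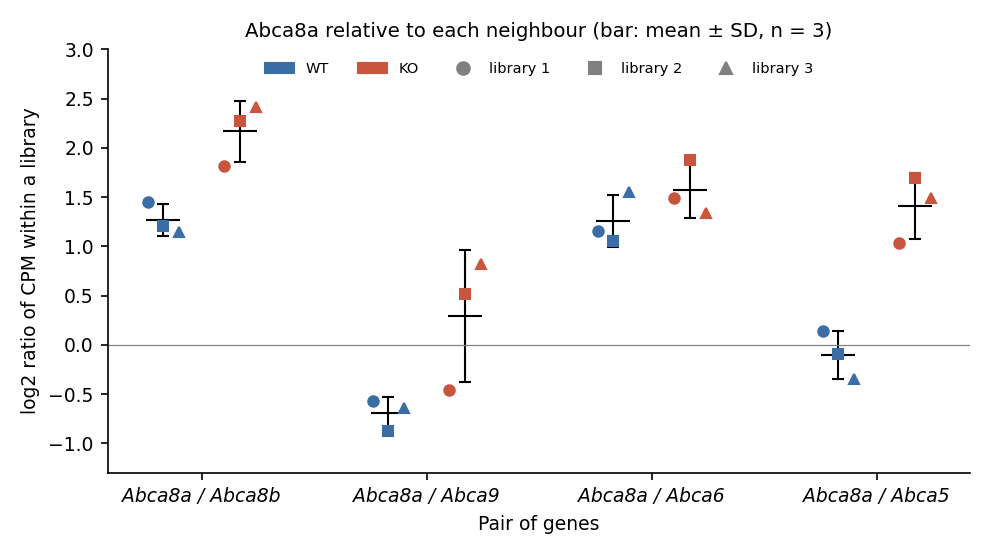
The log2 ratio of Abca8a CPM to that of each neighbour within a library (y axis) for 4 gene pairs (x axis), with points, colours and bars as in the plot of CPM by gene. The ratio to Abca5 steps from between -0.35 and 0.14 in WT to between 1.04 and 1.70 in KO, and the ratio to Abca6 overlaps between the groups.

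The annotated transcripts show what the reads of each member were made of. Abca8a has 8 transcripts, of which 3 run through 39 exons (Abca8a-201, Abca8a-202 and Abca8a-204). These 3 took 95.2 to 97.9% of its reads in every library. Abca8a-201 starts at 110095937 and Abca8a-202 at 110095978, and exons 9 and 10 differ between them, with 142 bases in exon 9 of Abca8a-201 and 219 in that of Abca8a-202. Abca8a-204 was listed at 0 reads in each library. Of the reads of Abca8a-201 and Abca8a-202 together, Abca8a-201 took 54.8, 69.8 and 66.6% in WT 1 to 3, against 69.3, 72.5 and 70.8% in KO 1 to 3. WT 1 was the low library here, and WT 2 lay within the range of the KO libraries.

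The other members were simpler. A single transcript of 39 exons took 98.8 to 99.7% of the reads of Abca9, 96.6 to 99.4% of those of Abca5 and 89.5 to 99.2% of those of Abca6. Abca8b-201 took 100% of the reads of Abca8b in WT 1, WT 3 and KO 2, and Abca8b-202 gave 10.01 to 17.2 reads in the other libraries. Gm11697, annotated antisense within Abca8b, was not among the transcripts quantified, and the strand setting of the counting was not given.

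Salmon's TPM, which scales each transcript by its length, puts a different weight on these transcripts. Abca8a-206, a non-coding transcript of 299 bases in 3 exons near the end of the gene (110026848 to 110030081), took 1.12 to 3.08% of the reads of Abca8a but 30.6 to 50.8% of its TPM. Transcripts that do not code for protein made up 37.9 to 59.9% of the TPM of Abca8a, against 3.22 to 32.1% in Abca6, 2.20 to 7.36% in Abca5, 0.860 to 3.32% in Abca9 and 0% in Abca8b. Between 5.35 and 20.9 reads per library stand behind that short transcript. Salmon divides reads among transcripts that share exons, so single transcripts are less certain than the gene's sum.

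**Figure D3:**
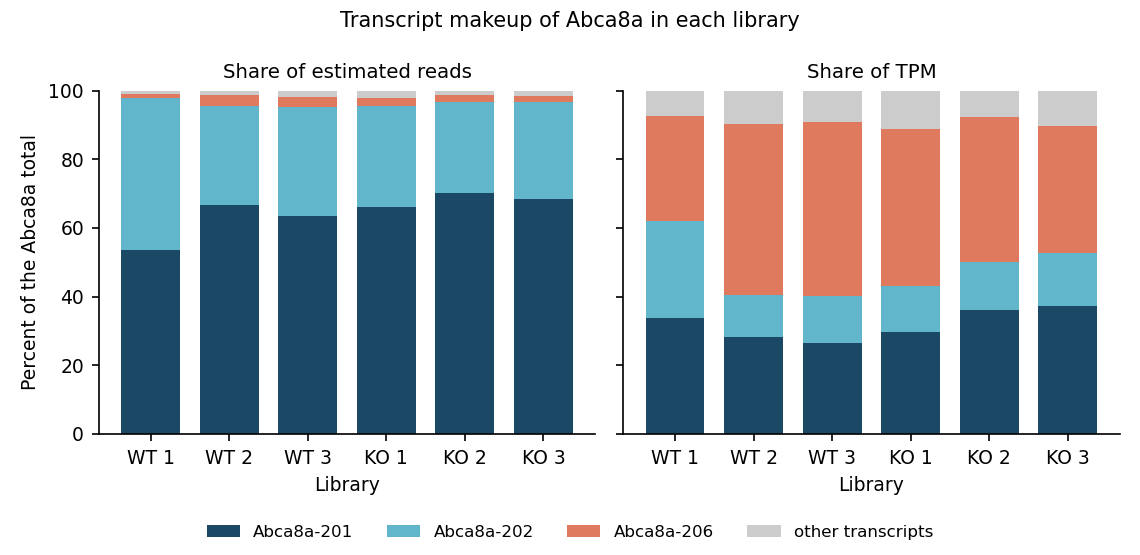
Percent of the Abca8a total (y axis) held by its transcripts in each of the 6 libraries (x axis), as stacked bars, with estimated reads on the left and TPM on the right. Abca8a-206, of 299 bases, is a thin band of 1.12 to 3.08% of reads and a broad one of 30.6 to 50.8% of TPM.

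Levels per length allow the genes to be compared. By TPM summed over all transcripts the order was Abca8a (14.7 ± 6.50), Abca9 (6.88 ± 1.56), Abca5 (3.54 ± 0.548), Abca6 (3.29 ± 1.48) and Abca8b (1.61 ± 0.233; SD, n = 6). In WT, Abca8a ranged from 7.72 to 10.8 TPM and Abca9 from 5.08 to 7.46 TPM, so they did not overlap. With protein-coding transcripts only, a choice made after the values were seen, the order of the means over 6 libraries stayed as above, but Abca9 led in WT at 6.17 ± 1.18 TPM against 4.48 ± 0.880 TPM for Abca8a (SD, n = 3), and their ranges overlapped. In KO Abca8a had the higher mean on that scale too, at 10.02 ± 2.24 against 7.39 ± 1.88 TPM, again with overlap. Within single libraries, Abca9 was the higher on that scale in each WT library and in KO 1 (9.55 against 7.63 TPM). Abca8a was the higher in KO 2 and KO 3. By CPM per kilobase of the longest coding transcript, Abca9 led in WT, at 4.45 to 5.49 against 3.24 to 4.03 for Abca8a, without overlap. Which of Abca8a and Abca9 led in WT thus depended on the scale. Abca5 and Abca6 overlapped in TPM over the 6 libraries. Abca8b had the lowest mean on each scale.

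ABCA genes outside the cluster were read on the same TPM scale. Abca8a, at 14.7 TPM with its short transcript included and 7.25 TPM with protein-coding transcripts only, had a mean below that of Abca1. Abca1, the cholesterol and phospholipid exporter, stood at 18.6 ± 3.46 TPM over the 6 libraries, and Abca3, which loads phospholipid into lamellar bodies, at 12.2 ± 1.34 TPM. Abca7, a relative of Abca1, stood at 7.62 ± 1.07 TPM, Abca2, an endolysosomal lipid transporter, at 5.82 ± 1.65 TPM and Abca4, the retinoid transporter of photoreceptors, at 2.62 ± 1.02 TPM. Abca12, Abca13, Abca14, Abca15 and Abca17 each had a mean under that of Abca8b, between 5 and 91 reads over all libraries, and Abca16 had 0.

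The KO and WT values of these other ABCA genes were not used to choose the members. Of the 11 genes 6 were tested, and 0 were called by edgeR, DESeq2 or limma-voom. Abca1 had the smallest p, with 120, 117 and 134 CPM in WT 1 to 3 and 181, 159 and 141 CPM in KO 1 to 3. Its KO libraries lay above its WT libraries, at 160 ± 19.7 against 123 ± 8.98 CPM (SD, n = 3, log2 difference 0.38, edgeR adjusted p = 0.254). It was the 1 gene of the 6 with an unadjusted p under 0.05, against 5.62% of all genes higher in KO and 7% lower. Abca4 stood at 7.85 ± 1.11 CPM in KO against 5.07 ± 1.88 CPM in WT (SD, n = 3), and Abca2 at 26.7 ± 3.26 and 31.1 ± 2.56 CPM, both with overlap. Abca7 (41.8 ± 7.72 and 40.7 ± 4.09 CPM) and Abca3 (59.3 ± 2.93 and 58.8 ± 0.892 CPM) had close means, and Abca13 had a mean of 0.905 in KO and 0.553 in WT. The median log2 difference of the 6 was 0.21, against 0.01 over all genes tested, and without WT 1 it was 0.36 over the 7 genes then tested. Without KO 1, 1 gene of the list was lower at an unadjusted p under 0.05, and with all libraries 0 were.

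Other ABC transporter subfamilies gave a similar picture. Of 34 genes listed 30 were tested and 0 were called by edgeR. Without adjustment 3 were higher and 0 lower in KO, against 5.62% and 7% of all genes. The median log2 difference was 0.07. Abcb1a, a drug efflux pump of the P-glycoprotein type, stood at 8.52 ± 1.20 CPM in KO against 5.24 ± 0.545 CPM in WT (SD, n = 3, edgeR adjusted p = 0.217), with no overlap, and was the 1 gene of the list that DESeq2 called (adjusted p = 0.0467). Abcc10, a multidrug resistance protein, stood at 30.7 ± 7.52 against 20.9 ± 2.34 CPM, and Abcc6, whose loss causes ectopic calcification, at 2.69 ± 0.591 against 1.65 ± 0.427 CPM. Without KO 1, edgeR called 1 gene of the list, Abcc10.

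Genes of cholesterol efflux and of its nuclear receptors (LXR) had more members higher than lower. Of 15 listed 13 were tested, 10 had a higher mean in KO and 3 a lower one, and 0 were called by edgeR, DESeq2 or limma-voom. Without adjustment 2 were higher, Abca1 and Mylip, and 0 lower, against 5.62% and 7% of all genes. Mylip, which marks the LDL receptor for degradation, stood at 21.8 ± 2.20 CPM in KO against 17.3 ± 2.65 CPM in WT (SD, n = 3). Lpcat3, which places polyunsaturated fatty acids into phospholipids, stood at 39.8 ± 3.21 against 33.9 ± 2.29 CPM. Abca1, Mylip and Lpcat3 had all KO values above all WT values, as did 9.07% of all genes. The median log2 difference of the list was 0.15, against 0.01 over all genes tested. Without KO 1 there were 4 genes higher at an unadjusted p under 0.05, and without WT 1 there was 1.

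The genes on either side of the cluster were not used in choosing the members. Within 1 Mb of it 15 further protein-coding genes are annotated, of which 11 were tested. Of all genes, 9.07% separated with KO above and 10.3% with KO below. In 0 of these 11 did the groups separate in either direction, and 0 had an unadjusted p under 0.05 or were called by edgeR, DESeq2 or limma-voom. Their log2 differences ran from -0.58 to 0.19, with 3 above and 8 below 0 and a median of -0.07, or -0.13 without WT 1.

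Map2k6, a MAP kinase kinase and the nearest gene beyond Abca5 at 61406 bases, stood at 3.87 ± 1.4999 CPM in KO against 4.63 ± 0.802 CPM in WT (SD, n = 3). Kcnj2, a potassium channel further along, had 2.44 ± 0.695 and 3.63 ± 1.28 CPM. On the side of Abca8b the nearest tested gene was Fam20a, which encodes a pseudokinase of the secretory pathway, 209911 bases away, at 11.8 ± 1.70 and 10.4 ± 0.0627 CPM.

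Prkar1a, a regulatory subunit of protein kinase A, stood at 204 ± 16.96 CPM in KO against 213 ± 12.3 CPM in WT (SD, n = 3), and Wipi1, an autophagy gene, at 57.2 ± 10.8 and 60.3 ± 5.18 CPM. Arsg, a lysosomal sulfatase, had 9.75 ± 1.33 and 9.08 ± 1.12 CPM, and Slc16a6, a monocarboxylate transporter, 23.4 ± 6.46 and 28.2 ± 4.43 CPM. Amz2 (37.2 ± 2.51 and 37.8 ± 0.961 CPM) and Gna13 (42.4 ± 2.56 and 40.97 ± 1.17 CPM) had close means. Rgs9 (4.28 ± 1.15 and 5.07 ± 0.546 CPM) and Axin2 (15.9 ± 2.76 and 18.7 ± 4.91 CPM) had lower means in KO, with overlap. Without KO 1, 0 of the 11 were called, and 1 had an unadjusted p under 0.05. Without WT 1, 0 were called, and 2 had one.

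**Figure D4:**
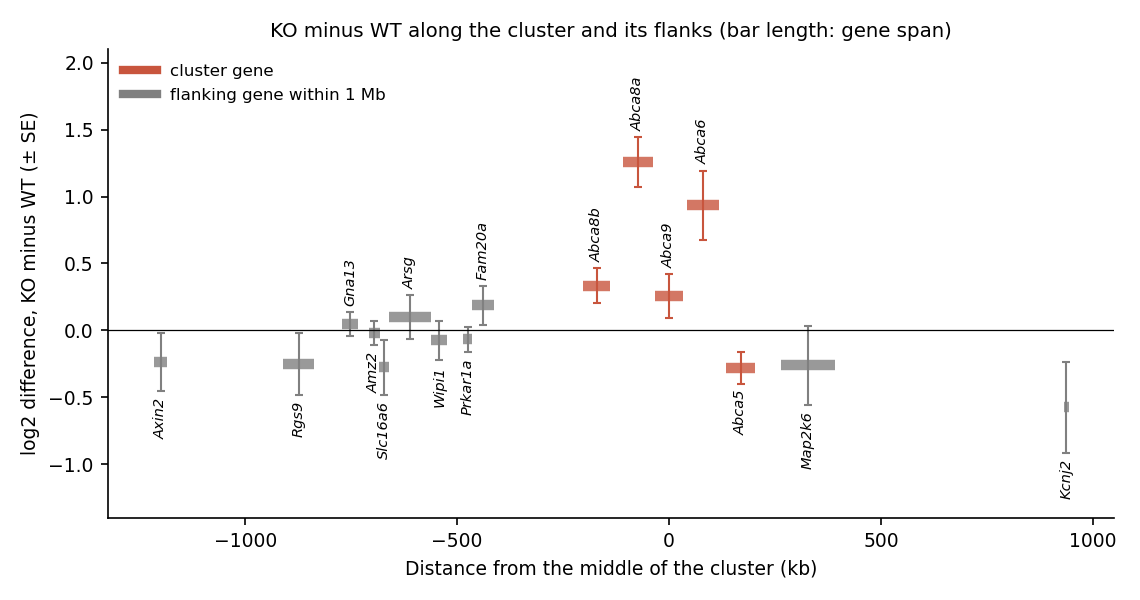
The log2 difference of KO minus WT (y axis, error bars ± SE) against distance from the middle of the cluster in kb (x axis) for the 5 cluster genes (red) and the 11 tested protein-coding genes within 1 Mb (grey), where the length of a horizontal bar is the span of the gene. Abca8a at 1.26 and Abca6 at 0.93 stand above the flanking genes, which lie between -0.58 and 0.19.

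The genes whose CPM followed that of Abca8a most closely over the 6 libraries were Plpp3, Mamld1, Arhgef12, Cd46, Sema3g, Acss3, Garem1 and Msl1. Pearson's r of log2(CPM + 1) ran from 0.991 to 0.996 among 14562 ranked genes with a mean of at least 1 CPM. Plpp3, a lipid phosphate phosphatase, stood between 87.4 and 96.5 CPM in WT and between 111 and 126 CPM in KO. Acss3, a mitochondrial short-chain acyl-CoA synthetase, stood between 2.28 and 3.27 CPM in WT and between 4.47 and 7.74 CPM in KO. The 6 points share the genotype step, so such a ranking gathers genes with the same step, and it is given as a description.

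Among the members, Abca8b ranked number 75 in likeness to Abca8a (r = 0.966) and Abca6 number 330 (r = 0.913). Abca9 (r = 0.278) and Abca5 (r = -0.737) were far down. With each genotype's mean taken out, Abca6 (r = 0.736) ranked number 886 and Abca8b (r = 0.714) number 1003 of 14562 genes. The r of Abca5 with Abca8a was then 0.169 and that of Abca9 was -0.657. Each r rests on 6 points less their genotype means, so nothing is read from its size. The genes nearest to Abca8a by that measure were Snrnp70, Upf2, Acpp, Rmc1, Tprkb, Mindy1, Gm15542 and Dgat2, with r from 0.987 to 0.997.

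Markers of the cell types that could carry these transcripts differed among the libraries too. In bulk samples, fewer cells of a type and less RNA per cell cannot be told apart. Of the 12 endothelial markers, all tested, 11 had a higher mean in KO. Their median log2 difference was 0.18, against 0.01 over all genes tested. Their CPM summed to 785 to 888 in WT and 900.5 to 950.5 in KO, and 0 were called by edgeR, DESeq2 or limma-voom. At an unadjusted p under 0.05 in edgeR, 5 of the 12 were higher, or 3 without KO 1. With all libraries, 5.62% of all genes were. Pecam1, a junction protein of endothelium, stood at 171 ± 6.47 CPM in KO against 146 ± 13.9 CPM in WT (SD, n = 3), Cdh5 at 126 ± 10.8 and 129 ± 13.9 CPM, and Kdr at 132 ± 12.1 and 108 ± 12.6 CPM.

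Of the 15 fibroblast markers, all tested, 11 had a lower mean in KO, with a median log2 difference of -0.23, which was -0.37 without KO 1 and -0.35 without WT 1. They summed to 10246 to 12577 CPM in WT and 6709 to 10422 CPM in KO, with KO 2 the lowest. By edgeR 0 were called, while at an unadjusted p under 0.05, 1 was higher and 3 lower, or 6 lower without KO 1 and 2 without WT 1. Of all genes, with all libraries, 5.62% were higher and 7% lower at that p. DESeq2 called 1, Pdgfra, higher (125 ± 14.5 against 95.3 ± 2.66 CPM), which is named after its values were seen. The collagen genes Col3a1 (4133 ± 1038 and 4806 ± 614 CPM), Col1a1 (1589 ± 405 and 2247 ± 302 CPM) and Col1a2 (1698 ± 431 and 2145 ± 241 CPM) had lower means in KO. Without KO 1, edgeR called Pdgfra higher and Dpt and Mfap4 lower.

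Of the 10 pericyte and smooth muscle markers, 6 had a higher mean and 4 a lower one, and the sums overlapped, at 435 to 437 CPM in WT and 397 to 489 CPM in KO. Rgs5 stood at 76.9 ± 22.1 CPM in KO against 91.4 ± 5.51 CPM in WT (SD, n = 3), Mcam at 76.0 ± 11.5 and 73.2 ± 3.02 CPM, and Notch3 at 80.8 ± 8.87 and 71.1 ± 4.57 CPM. Of the 8 adipocyte markers only Fabp4 and Pparg were tested, with a sum of 36.4 to 47.8 CPM in WT and 53.2 to 115.8 CPM in KO, and DESeq2 called 1 of them, Fabp4, as edgeR did without KO 1. Of the 6 not tested, Lep and Cfd had 0 reads over all libraries, Adipoq 2, Cidec 6, Retn 31.2 and Plin1 49.2. Macrophage markers summed to 535 to 549 CPM in WT and 444 to 552 CPM in KO, and all 8 had a lower mean in KO.

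Mesothelial markers summed to 237 to 444 CPM in WT and 223 to 397 CPM in KO, and nerve and glia markers to 60.6 to 61.0 and 62.002 to 65.3 CPM. Duct markers summed to 685 to 811 and 652 to 763 CPM. Acinar markers summed to 164714 to 236371 CPM in WT and 212196 to 261135 CPM in KO, with 4 means higher and 4 lower. Endocrine markers summed to 7121 to 9129 CPM in WT and 6286 to 6941 CPM in KO, without overlap. Of these 8 markers, 3 had a higher mean in KO and 5 a lower one. By edgeR 0 were called, while DESeq2 called 2 lower, Ins1 and Ins2, against 304 of all 15805 genes. Hepatocyte markers reached 660 CPM in WT 1 and lay between 93.8 and 128 CPM in the other 5 libraries. Erythroid markers reached 5943 CPM in WT 1 and 4791 CPM in KO 2, against 1707 to 2840 CPM elsewhere. Abca8a stood at 22.6 CPM in WT 1 and 53.7 CPM in KO 2. The part that any of these cell types has in the values of the cluster was not tested.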

How the data were processed

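Each library came from whole pancreas and was made with a stranded mRNA kit, per the labels' protocols. The submitters' processing notes name mm10, bcl2fastq, DESeq2 1.24.0 and Salmon 0.13.1. The authors deposited estimated counts and TPM from Salmon per library for 116248 transcripts, with transcript and effective lengths, and these are not normalized between libraries. They also deposited a scaled signal for 17324 genes, which served in 1 alternative only. Under 1% of its values were whole numbers. Its median ratio to the summed reads ran from 0.88 in WT 2 to 1.10 in KO 2. The inverses of a size factor for those libraries were 0.87 and 1.11. The signal thus reads as estimated counts scaled between libraries, but not by a library factor alone. Abca8a in WT 1 had 478 reads and 385 units, although the median ratio of that library was 1.03. A fit of the summed reads with a transcript length offset gave log2 differences close to those of the signal. They were 1.15 and 1.15 for Abca8a, 0.77 and 0.74 for Abca6, and -0.34 and -0.34 for Abca5. Whether the signal was corrected for length was not tested.

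Of the transcripts, 115995 matched GENCODE M21 with equal length. Their estimated counts were summed to 35527 genes (Python 3.11.15, pandas 2.3.3) and rounded. Replicates differed by more than sampling noise (chi-square over degrees of freedom, 22.5 to 48.2). The test across genes was edgeR 4.0.16's quasi-likelihood test (R 4.3.3) with TMM and filterByExpr, called at a Benjamini-Hochberg adjusted p of 0.05. SE is the log2 difference over the root of F. The log2 ratios had a prior of 2 reads. The fits were also run on simulated counts with a common spread for all genes, as a check of the code only. That check does not bear on how the tools differ here. Nothing was adjusted over a list alone.

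The members and gene lists were chosen with earlier results of these data known. Named were all members, ABCA genes and tested flanking genes, up to 3 genes of other lists by p (markers by level), and the 8 genes most like Abca8a. Replicate numbers follow sample order and pair nothing. Whether the mice shared a litter or batch is not given, and with 3 against 3 libraries an exact permutation test cannot go below 0.1. Alternatives were other scalings, filters, tools (DESeq2 1.42.0, limma 3.58.1), lengths, transcript sets and left-out libraries.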

Additional observations from a re-analysis of the deposited data

How the results depend on the processing

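The 80 log2 differences of members under 16 alternatives, and the 52 log2 ratios of Abca8a to a neighbour under 13, kept their direction and stayed within 1 SD of the main value. That SD is the log2 spread within genotypes, from 0.25 to 0.49 for the ratios. Scaling factors cancel in a ratio within a library, so the alternatives that change only these could hardly move the ratios. Leaving out a single library can hardly move a group mean by more than that SD, so the limit of 1 SD was nearly sure to hold there. Where the groups did not overlap, it could hardly turn the direction either. These counts are therefore no measure of how firm the differences are. Leaving out each library in turn gave 1.15 to 1.44 for Abca8a, 0.66 to 1.10 for Abca6, 0.28 to 0.37 for Abca8b, 0.08 to 0.40 for Abca9 and -0.36 to -0.21 for Abca5. The ratios of Abca8a then differed between genotypes by 0.78 to 1.08 against Abca8b, 0.72 to 1.36 against Abca9, 0.16 to 0.47 against Abca6 and 1.37 to 1.70 against Abca5. The count of genes called over the whole series was 0 in the main test, 436 with DESeq2, 2 with limma-voom, 1 with no filter, and 2 without the pair WT 1 and KO 2, and it ran from 0 to 362 when each library was left out. The 362 arose without KO 1, of which 87 were higher and 275 lower, and the cause was not tested. The mean level of Abca8a moved from 14.7 TPM to 7.25 TPM with protein-coding transcripts only, and to 6.03 CPM per kilobase of its longest coding transcript. The first leaves out Abca8a-206 and other non-coding transcripts, and the second spreads their few reads over the full length. No paired analysis was possible because the labels give no replicate number that groups share. Depth limits Abca8b and Abca6 most, at 129 to 508 reads per library.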

Other observations

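In the gene table that the authors deposited, Abca8a stood at 385, 492 and 471 scaled units in WT 1 to 3 and at 827, 1097 and 1074 in KO 1 to 3. WT 1 was the lowest WT library there, while it was the highest by summed reads, at 22.6 CPM. It was also the library where the 299-base transcript took the smallest share of the TPM of Abca8a, 30.6% against 36.9 to 50.8% elsewhere. The groups were apart on both scales. The log2 difference was 1.15 in that table, and also 1.15 for the summed reads with a transcript length offset.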
